A study of Mus musculus with 4 samples.

Results

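The hypothalamus governs the anterior pituitary through small peptides that it releases into the portal blood of the median eminence, and 6 genes of this hypophysiotropic system were followed in the hypothalamus of mice fed a western diet (WD). They were Trh (thyrotropin-releasing hormone), Crh (corticotropin-releasing hormone), Ghrh (growth hormone-releasing hormone), Sst (somatostatin, which inhibits growth hormone release), Gnrh1 (gonadotropin-releasing hormone) and Kiss1 (kisspeptin, which drives the GnRH neurons). The genes were chosen by name, and all 6 of 6 had a row among the 16339 genes of the count table. Each is made by a small set of neurons. The neurons that feed the portal system with TRH and CRH lie mainly in the paraventricular nucleus, GHRH neurons in the arcuate nucleus, somatostatin neurons that reach the median eminence in the periventricular nucleus, GnRH neurons in the preoptic area, and kisspeptin neurons in the arcuate nucleus and the anteroventral periventricular nucleus. Somatostatin is also made by interneurons of the cortex and hippocampus.

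The samples were hypothalami of C57BL/6 males in 2 groups, WT and Tas1r3-/-, and each group had 2 RNA sequencing libraries. All mice received the 60% fat diet D12492 and a 30% sucrose solution for 12 weeks, starting at 8 weeks of age. Tas1r3-/- mice carried the Tas1r3tmCSZ allele, a conventional knockout, and their WT littermates came from crosses of heterozygotes. Tas1r3 encodes the shared subunit of the sweet and umami taste receptors. The comparison asks whether the WD-fed knockout differs from the WD-fed WT in hypothalamic expression, and no group on a normal diet was analysed here. Estimated counts of named genes summed to between 5728729 and 6180137 per library, and levels are given as CPM, counts relative to the library size after TMM scaling. The targeted gene matched the labels in direction, with Tas1r3 at 6.05 and 4.44 CPM in the WT libraries and at 1.12 and 1.23 CPM in the Tas1r3-/- libraries. Its counts were lower and not absent, with 7 in each Tas1r3-/- library.

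The libraries were described by region markers, from lists chosen with earlier results of these data known. The library labelled WT WD replicate 2 held little of most hypothalamic markers. The summed level of 10 markers shared by hypothalamic nuclei was 44.6 CPM in it and 397 to 470 CPM in the other 3 libraries, and the defining factors Nkx2-1 and Nr5a1 were both at 0 there. Its 6 paraventricular markers summed to 24.6 CPM against 385 to 537 CPM. The ventromedial and suprachiasmatic sums were higher in it, at 192 CPM against 107 to 161 CPM and at 163 CPM against 64.0 to 92.97 CPM, through Nptx2 (168 CPM) and Rgs16 (158 CPM), while 3 of 5 and 3 of 4 tested members of these lists were lowest in it by at least 2-fold. Its 12 thalamic markers summed to 3611 CPM against 549 to 836 CPM. Its 10 choroid plexus markers summed to 780 CPM against 43.8 to 62.4 CPM, and its cortex and hippocampus markers to 751 CPM against 222 to 237 CPM, although 4 of 9 tested members of that list were lowest in it. Tas1r3-/- WD replicate 1 held pituitary hormone RNA, with Gh at 760 CPM and Prl at 498 CPM, against at most 12.2 CPM and 1.37 CPM in the other libraries. Its 12 pituitary markers with a row summed to 1823 CPM, against 147 CPM in WT WD replicate 1 and 70.4 CPM in Tas1r3-/- WD replicate 2. Results for the releasing hormone genes are therefore given with and without the library labelled WT WD replicate 2. In bulk tissue, fewer cells of a type and less RNA per cell cannot be told apart.

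**Figure D1:**
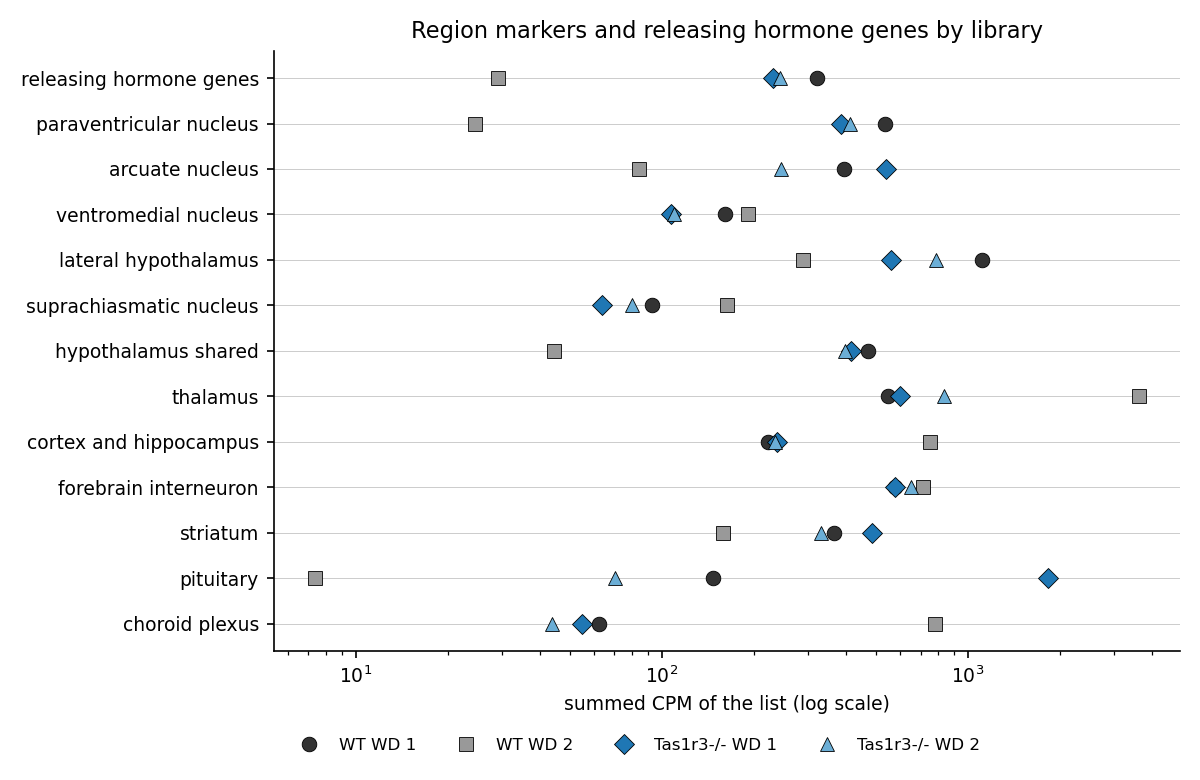
Summed CPM of each marker list and of the 6 releasing hormone genes (rows) on a log axis, with 1 point per library. The library labelled WT WD replicate 2 stands lowest for the releasing hormone genes (29.1 CPM), the paraventricular list and the list shared by hypothalamic nuclei, and highest for thalamus and choroid plexus.

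Promoter sequences of 4 of the 6 genes (Sst, Trh, Ghrh and Kiss1) were found in the RefSeq promoter table, whose build is GRCm38.p6. The upstream bases of the most abundant pair are shown because the cAMP response element, the site at which CREB binds, was first described in somatostatin. The capitals mark the full element TGACGTCA, which reads alike on both strands, or its short form CGTCA, searched on both strands. The full element contains the short form on each strand. The 250 bases before each start are printed 5′ to 3′ in the direction of transcription, and their places on GRCm39 were found by exact match. Sst is on the minus strand at chr16:23709595-23709844 and Trh on the minus strand at chr6:92221632-92221881.
Sst: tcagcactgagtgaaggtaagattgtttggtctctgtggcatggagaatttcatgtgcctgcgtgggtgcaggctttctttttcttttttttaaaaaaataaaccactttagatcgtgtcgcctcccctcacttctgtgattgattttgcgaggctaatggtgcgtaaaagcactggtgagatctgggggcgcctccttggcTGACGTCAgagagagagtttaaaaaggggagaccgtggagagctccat
Trh: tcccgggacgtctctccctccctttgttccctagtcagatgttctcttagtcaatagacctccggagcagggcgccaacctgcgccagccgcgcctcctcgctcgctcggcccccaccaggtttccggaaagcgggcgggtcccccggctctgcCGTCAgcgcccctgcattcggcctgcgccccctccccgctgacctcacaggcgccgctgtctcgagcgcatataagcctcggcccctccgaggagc
Sst held the full element 48 to 41 bases before its start. None of the other promoters found held it, and 1.55% of all 32851 promoters in the table held it in the same 250 bases. The short form stood 96 bases before the start of Trh, 231 bases before that of Kiss1, 18 bases before one start of Ghrh and 225 and 61 bases before the other, where each number gives its first base. It was in 17.8% of all promoters. A match describes the letters of the window and is not evidence of binding.

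All 6 genes were lowest in the library labelled WT WD replicate 2, while the other 3 libraries lay close together for Trh, Crh and Kiss1. The 6 genes together summed to 321 CPM in WT WD replicate 1, 29.1 CPM in WT WD replicate 2, 231 CPM in Tas1r3-/- WD replicate 1 and 243 CPM in Tas1r3-/- WD replicate 2. Of all 14344 genes with enough counts to be tested, 34.6% were lowest there, and 3.96% by at least 2-fold, as were all 5 of the 6 that could be tested. The groups overlapped for each of these 5 genes, whereas 39.5% of all genes tested had groups that did not overlap.

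**Figure D2:**
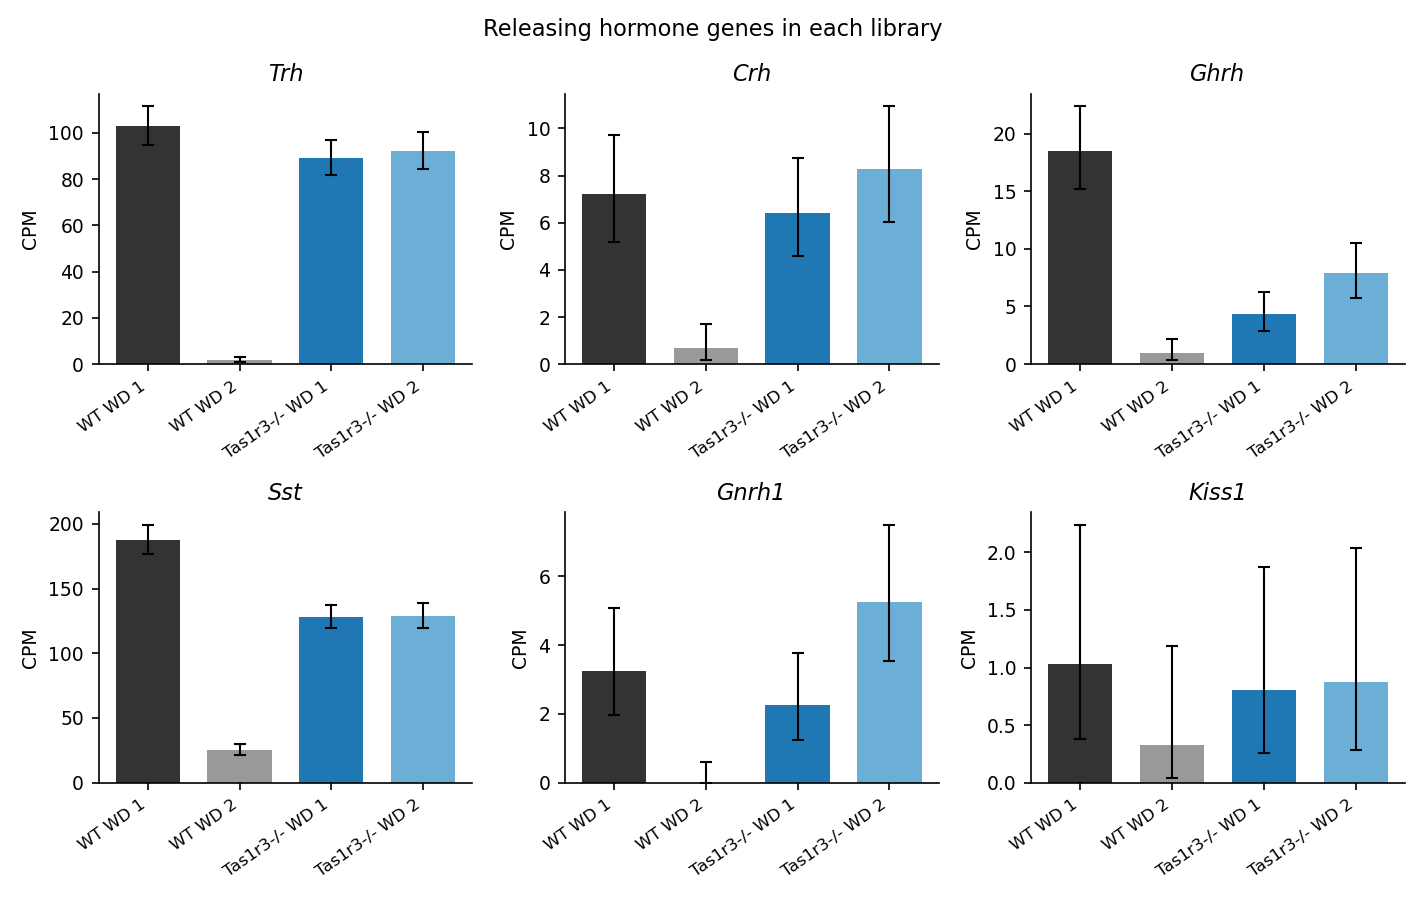
CPM of each gene (linear axis from 0, a scale of its own per panel) in the 4 libraries, with exact 95% Clopper-Pearson intervals that cover counting error only. The grey bar of WT WD replicate 2 is the lowest in each panel, and Ghrh and Sst are higher in WT WD replicate 1 than in both Tas1r3-/- WD libraries.

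Trh encodes the precursor of the tripeptide that drives thyrotropin release. The gene (ENSMUSG00000005892) lies on the minus strand of chromosome 6 at chr6:92219021-92221631 of GRCm39 and has 3 exons in its canonical transcript. Its estimated counts were 600 for the first WT library, 10 for the second, 556 for the first Tas1r3-/- library and 527 for the second. These correspond to 103 and 1.64 CPM in the WT libraries and 89.1 and 92.2 CPM in the Tas1r3-/- libraries, or 52.3 ± 71.6 and 90.7 ± 2.18 CPM (SD, n = 2 each). Both Tas1r3-/- libraries thus lay close to each other and between the WT libraries, which differed 62.6-fold (counting interval 33.8 to 131). The library labelled WT WD replicate 2 held 1.84% of the level in the lowest other library. This was a smaller share than for Crh (10.5%), Ghrh (22.8%), Sst (19.9%) and Kiss1 (41.3%). The shares rest on 10, 4 and 6 counts there for Trh, Crh and Ghrh. The ratio of the WT libraries had a counting interval of 3.97 to 42.0 for Crh and 8.35 to 52.3 for Ghrh. Both intervals overlapped that of Trh, and the order of these genes was not tested. Gnrh1 was at 0 counts in that library, and at its depth it cannot be ordered against Trh. The same share was 1.39% for Otp, a factor needed to form TRH, CRH and somatostatin neurons, and 1.17% for Avp (vasopressin).

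The log2 fold change of Trh, Tas1r3-/- WD over WT WD, was 0.80 ± 1.38 (SE) with an adjusted p of 0.888 by the quasi-likelihood test of edgeR, adjusted over all genes by Benjamini-Hochberg. Without the library labelled WT WD replicate 2 it was -0.18 ± 0.10, with an adjusted p of 0.476 in the same edgeR test. The difference between the genotypes then rests on 1 WT library, which the fit assumes to vary like the Tas1r3-/- libraries. The ratio of WT WD replicate 1 to the pooled Tas1r3-/- WD counts was 1.14 (counting interval 1.03 to 1.26).

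Crh encodes the peptide that drives corticotropin release and the stress axis. The gene (ENSMUSG00000049796) is on the minus strand at chr3:19747565-19749655. Its levels were 7.20 CPM in WT WD replicate 1, 0.672 CPM in WT WD replicate 2, 6.41 CPM in Tas1r3-/- WD replicate 1 and 8.26 CPM in Tas1r3-/- WD replicate 2. The 3 libraries other than WT WD replicate 2 differed by at most 1.29-fold. The log2 fold change was 0.90 ± 0.93 (SE, adjusted p = 0.812, edgeR) and 0.020 ± 0.36 (adjusted p = 0.987, edgeR) without the library labelled WT WD replicate 2. The ratio of WT WD replicate 1 to the pooled knockout counts was 0.989, with a counting interval of 0.668 to 1.45, so that differences within that interval were not detectable at the depth of 40 to 47 counts per library.

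Ghrh and Sst act on the same pituitary cell in opposite directions, and of the 6 genes these 2 had the largest ratios of WT WD replicate 1 to the pooled Tas1r3-/- counts. Ghrh (ENSMUSG00000027643) is on the minus strand at chr2:157171414-157191485, with 5 exons in its canonical transcript. Its estimated counts were 108 and 6 in the WT libraries and 27 and 45 in the Tas1r3-/- libraries, or 18.5 and 0.987 CPM against 4.33 and 7.87 CPM. The Tas1r3-/- libraries lay between the WT libraries, and WT WD replicate 1 was 3.07-fold above their pooled level (counting interval 2.26 to 4.201). The Tas1r3-/- libraries also differed from each other, with counting intervals of 2.85 to 6.298 CPM and 5.74 to 10.5 CPM. These intervals overlapped in part, which cannot decide whether the libraries differed beyond counting error.

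Sst (ENSMUSG00000004366) is on the minus strand at chr16:23707321-23711733. Its estimated counts were 1095 and 155 in the WT libraries and 799 and 737 in the Tas1r3-/- libraries, rounded to whole counts. Its levels were 188 and 25.4 CPM in the WT libraries and 128 and 129 CPM in the Tas1r3-/- libraries, or 107 ± 115 and 129 ± 0.612 CPM (SD, n = 2 each). WT WD replicate 1 was 1.46-fold above the pooled Tas1r3-/- level (counting interval 1.35 to 1.58). Sst kept 19.9% of the lowest other library in WT WD replicate 2, where 7 of the 10 markers of forebrain interneurons were lowest, 6 of them by at least 2-fold. Lhx6 was at 0.493 CPM there and at 5.67 to 25.8 CPM in the other 3 libraries. The summed level of the list was nevertheless 714 CPM against 576 to 650 CPM, with Calb2 alone at 582 CPM against 211 to 279 CPM. The part of such cells in its level was not tested.

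With all 4 libraries, the log2 fold change was -0.67 ± 1.17 (SE) for Ghrh and 0.27 ± 0.86 for Sst, with adjusted p of 0.888 and 0.945 by edgeR. Without the library labelled WT WD replicate 2 they were -1.61 ± 0.33 and -0.55 ± 0.10, with unadjusted p of 5.87e-04 and 2.61e-04 by edgeR. The adjusted p by edgeR were then 0.0870 and 0.0679, over the threshold of 0.05. In that fit 14.0% of all genes tested had an unadjusted p under 0.05, and 5.50% had it with the lower level in the Tas1r3-/- libraries. Without a filter on low counts, an alternative chosen after the data were seen, the adjusted p by edgeR were 0.0267 and 0.0291, and Ghrh alone of the 6 genes then also passed the fold change threshold of 1.5, as did 0.606% of the 16339 genes in that fit. DESeq2 on the same 3 libraries gave log2 fold changes of -1.60 for Ghrh and -0.55 for Sst. Ghrh had no adjusted p in that fit, so that it could not be called, and Sst was not called.

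Many other hypothalamic markers were also higher in WT WD replicate 1 than in both Tas1r3-/- libraries, though only a minority of the paraventricular ones. Their part in the values of Ghrh and Sst was not tested. Of the 10 markers shared by hypothalamic nuclei, 7 were higher in it, as were 5 of 7 arcuate markers and 4 of 5 tested lateral hypothalamic markers, 4 of 5 ventromedial markers and 3 of 4 tested suprachiasmatic markers, beside 37.4% of all genes tested. Of the 6 paraventricular markers, 2 were higher in it (Otp and Avp) and 3 were lower in it than in both Tas1r3-/- libraries, among them Sim1 at 13.0 CPM against 18.3 and 19.8 CPM. The shared markers summed to 470 CPM in WT WD replicate 1 and to 414 and 397 CPM in the Tas1r3-/- libraries. The sum of the paraventricular markers was also higher in WT WD replicate 1, at 537 CPM against 385 and 411 CPM. Hcrt (hypocretin) was at 164 CPM against 62.9 and 93.1 CPM, and Avp at 335 CPM against 197 and 202 CPM. Cartpt (the CART peptide) was at 183 CPM against 129 and 120 CPM. The interneuron factor Lhx6 went the other way, at 5.67 CPM against 25.8 and 18.2 CPM.

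Gnrh1 and Kiss1, the pair that controls reproduction, had the fewest counts. Gnrh1 (ENSMUSG00000015812) is on the plus strand at chr14:67982630-67986888. Its estimated counts were 19 and 0 in the WT libraries and 14 and 30 in the Tas1r3-/- libraries, or 3.26 and 0 CPM against 2.24 and 5.25 CPM. The 0 in WT WD replicate 2 was set to a floor of 3 counts (0.493 CPM), and its counting interval reached 0.607 CPM. WT WD replicate 1 was 6.60-fold above that floor, and the counting interval of the ratio of the WT libraries starts at 4.87. The log2 fold change between genotypes was 1.20 ± 1.27 (SE, adjusted p = 0.816, edgeR) and 0.19 ± 0.59 (adjusted p = 0.918, edgeR) without the library labelled WT WD replicate 2.

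Kiss1 had estimated counts of 6 and 2 in the WT libraries and 5 and 5 in the Tas1r3-/- libraries, or 1.03, 0.331, 0.802 and 0.875 CPM, and did not pass the filter on low counts. Its counting interval in WT WD replicate 2, 0.0398 to 1.19 CPM, overlapped those of the other 3 libraries. Without the filter its log2 fold change was 0.31 ± 0.82 (SE, adjusted p = 0.938, edgeR), and -0.29 ± 0.99 (adjusted p = 0.939, edgeR) without the library labelled WT WD replicate 2. Differences of this gene between the libraries were not detectable at this depth. Kiss1r is the receptor gene by which GnRH neurons respond to kisspeptin and was at 8.75 and 7.89 CPM in the WT libraries and at 11.8 and 7.85 CPM in the Tas1r3-/- libraries.

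Ghrh and Gnrh1 were each the sum of 2 RefSeq transcripts, and the split of shared reads between them is an estimate of the authors' software. For Ghrh, NM_001329683 held 88.3% of the gene's counts in WT WD replicate 1 and 93.9% or more in the other libraries. For Gnrh1, the coding transcript NM_008145 had 19.0 and 0 counts in the WT libraries and 8.03 and 12.0 in the Tas1r3-/- libraries. The non-coding transcript NR_133010 had 5.97 and 18.0 estimated counts in the Tas1r3-/- libraries and rounded to 0 in both WT libraries. On the coding transcript alone the log2 fold change of Gnrh1 was 0.044 ± 1.64 (SE, adjusted p = 0.998, edgeR over transcripts), and the non-coding one had too few counts to be tested. Trh, Crh, Sst and Kiss1 each had 1 transcript in the table.

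**Figure D3:**
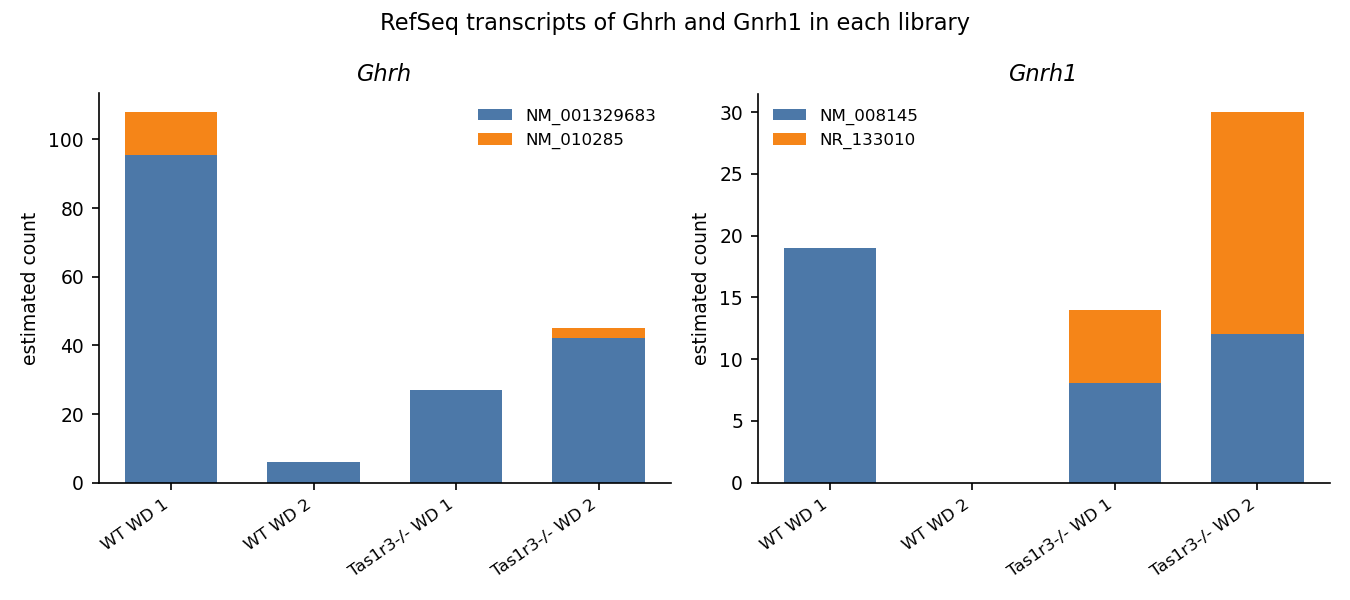
Estimated counts (y axis, from 0) of the 2 RefSeq transcripts of Ghrh and of Gnrh1, stacked per library. Most Ghrh counts were assigned to NM_001329683 in each library, and the non-coding Gnrh1 transcript NR_133010 received 5.97 and 18.0 counts in the Tas1r3-/- WD libraries.

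Per kilobase of the canonical transcript, the genes ranked in the order Sst, Trh, Ghrh, Crh and Gnrh1, and no length was at hand for Kiss1. In the 3 libraries other than WT WD replicate 2, the level per kilobase was 74.4 to 109 CPM for Sst and 63.4 to 73.2 CPM for Trh. It was 7.90 to 33.8 CPM for Ghrh, 4.53 to 5.84 CPM for Crh and 1.495 to 3.498 CPM for Gnrh1. No neighbours in this order overlapped over these 3 libraries, although the gap between Sst and Trh was narrow. The lengths were not taken from the RefSeq transcripts that were counted, and the order by those was not checked. With the library labelled WT WD replicate 2 included, all neighbours overlapped, and Ghrh at 1.80 CPM per kilobase exceeded Trh at 1.17 CPM per kilobase in that library.

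No releasing hormone gene was called between the genotypes with all 4 libraries, and 0% of the 14344 genes tested were called by edgeR. A call needed a fold change of 1.5 or more together with an adjusted p under 0.05. The targeted gene Tas1r3 was not called either (log2 fold change -2.13 ± 0.42, SE, adjusted p = 0.757, edgeR), so that the absence of a call says little. An unadjusted p under 0.05 was reached by 772 genes (5.38%) and by none of the 5 tested members, and DESeq2 called 9 genes (0.0637% of those with an adjusted p), none of them a member. The median log2 fold change of the 5 tested members was 0.80, beside -0.0057 over all genes tested. Without the library labelled WT WD replicate 2 the members' median was -0.18, beside 0.0017 over all genes, and 0 of 5 were called, beside 39 genes (0.272%). Without WT WD replicate 1, which leaves the other WT library alone, 5 of 5 were called as higher in the Tas1r3-/- libraries, beside 14.6% of all genes called and 7.79% called in that direction. The direction of Trh, Ghrh and Sst thus turned with which WT library was left out. In that fit the log2 fold change was 5.77 for Trh, 3.43 for Crh, 2.60 for Ghrh and 2.33 for Sst. That of Gnrh1 has no bound in the fit because the WT library was at 0. The mean Tas1r3-/- level of Gnrh1 was 7.60-fold above the level of 3 counts in that library.

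**Figure D4:**
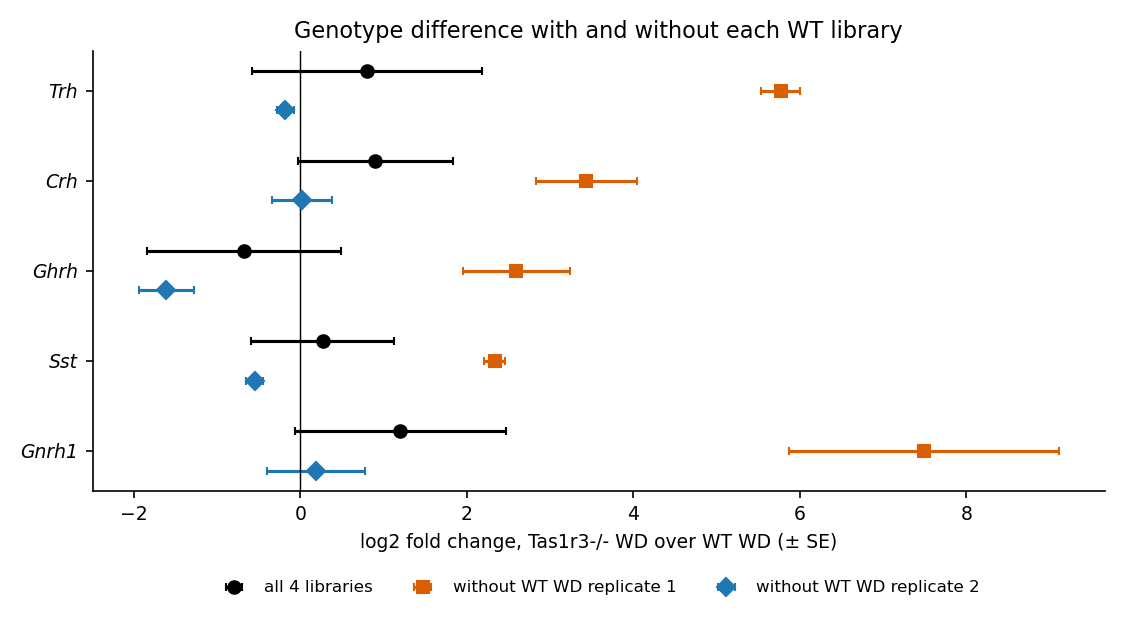
Log2 fold change with its SE (x axis) of the 5 tested genes (rows), with all 4 libraries and without either WT library. The fits without WT WD replicate 1 lie at 2.33 and above, those without WT WD replicate 2 at 0.19 and below, and the fits with all libraries have the widest intervals except for Gnrh1.

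The receptors of these hormones are found both on pituitary cells and on neurons. Of 12 receptor genes, 11 had a row (Gnrhr had none) and 10 were tested. None was called, and the median log2 fold change was 0.36 with all libraries and -0.070 without the library labelled WT WD replicate 2. Among the most abundant, the somatostatin receptor gene Sstr1 was at 48.8 and 14.2 CPM in the WT libraries and at 44.0 and 43.4 CPM in the Tas1r3-/- libraries. Sstr2 was at 20.6 and 28.6 CPM against 19.4 and 21.2 CPM, and Sstr3 at 18.3 and 15.2 CPM against 13.6 and 16.1 CPM. Sstr2 and Sstr3 did not have the gap in WT WD replicate 2 that Sst had. Of the 10 tested receptors, however, 5 were lowest in that library by at least 2-fold, Sstr1 among them, beside 3.96% of all genes tested. Ghrhr, the receptor of GHRH on somatotrophs, was detected only in Tas1r3-/- WD replicate 1, at 2.89 CPM, the library with Gh at 760 CPM. Sstr4, named after its values were seen, was the 1 receptor with an unadjusted edgeR p under 0.05, at 5.31 and 7.24 CPM in the WT libraries and 2.57 and 2.45 CPM in the Tas1r3-/- libraries (log2 fold change -1.32 ± 0.36, adjusted p = 0.757, edgeR).

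Of 8 related ligands and binding or degrading proteins, 6 had a row (Ucn2 and Cort had none) and 5 were tested, with none called. In WT WD replicate 2, 4 of these 5 were lowest by at least 2-fold, beside 3.96% of all genes tested. Npvf, whose RFamide peptides restrain the GnRH system, was at 26.6 and 0.494 CPM in the WT libraries and at 7.54 and 11.5 CPM in the Tas1r3-/- libraries, an order of libraries like that of Ghrh. Its log2 fold change was -0.50 ± 1.33 with all libraries and -1.48 ± 0.26 without the library labelled WT WD replicate 2, where the adjusted p by edgeR was 0.0515. Tac2 encodes neurokinin B, a peptide also made by the kisspeptin neurons of the arcuate nucleus. Its level was highest in WT WD replicate 2, at 62.9 CPM against 15.4 to 22.05 CPM elsewhere. The other 6 of the 7 arcuate markers were lowest there by at least 2-fold, and the source of the Tac2 RNA was not tested. Trhde, the enzyme that degrades TRH, was at 17.3 and 6.42 CPM in the WT libraries and at 19.0 and 17.7 CPM in the Tas1r3-/- libraries.

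All 12 genes of peptide processing, which cut, amidate and pack hormone precursors, were tested and none was called. Their median log2 fold change was 0.10, and -0.042 without the library labelled WT WD replicate 2. Cpe (carboxypeptidase E) was at 1777 and 2635 CPM in the WT libraries and at 1698 and 1797 CPM in the Tas1r3-/- libraries. Scg2 (secretogranin II) was at 1300 and 516 CPM against 1233 and 1263 CPM, and Pcsk1n, an inhibitor of the convertase PC1/3, at 672 and 549 CPM against 556 and 542 CPM. The summed level of the list was 5768 CPM in WT WD replicate 2, within the 5698 to 5938 CPM of the other libraries, unlike that of the hormone genes. The sum hides opposite differences, since Cpe was highest in that library. Of the 12 genes, 8 were lowest there and 3 by at least 2-fold, beside 34.6% and 3.96% of all genes tested.

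Of 12 genes for feedback receptors and hormone access, 11 had a row (Dio3 had none) and all 11 were tested, with none called and a median log2 fold change of 0.27, or 0.078 without the library labelled WT WD replicate 2. Both Tas1r3-/- libraries were above both WT libraries for 5 of the 11, beside 20.6% of all genes tested. Thra, a thyroid hormone receptor, was at 949 and 704 CPM in the WT libraries and at 825 and 853 CPM in the Tas1r3-/- libraries. Nr3c1, the glucocorticoid receptor, was at 99.3 and 124 CPM against 102 and 107 CPM. Dio2, named after its values were seen, makes active thyroid hormone in glia and was at 9.77 and 15.8 CPM in the WT libraries and at 23.9 and 20.3 CPM in the Tas1r3-/- libraries. Its log2 fold change was 0.79 ± 0.29 with an adjusted p of 0.757 by edgeR, and 1.18 ± 0.24 with an adjusted p of 0.0825 by edgeR without the library labelled WT WD replicate 2.

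All 13 transcription factors that specify these neurons were tested and none was called. All 13 were lowest in the library labelled WT WD replicate 2, and 9 of them by at least 2-fold, beside 3.96% of all genes tested. Their median log2 fold change was 0.63, and -0.18 without that library. Otp was at 53.8 and 0.497 CPM in the WT libraries and at 39.5 and 35.7 CPM in the Tas1r3-/- libraries. Dlx1, which is needed for GHRH neurons, was at 49.1 and 2.33 CPM against 38.6 and 41.1 CPM. Arnt2, a partner of SIM1, was at 374 and 204 CPM against 369 and 358 CPM.

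**Figure D5:**
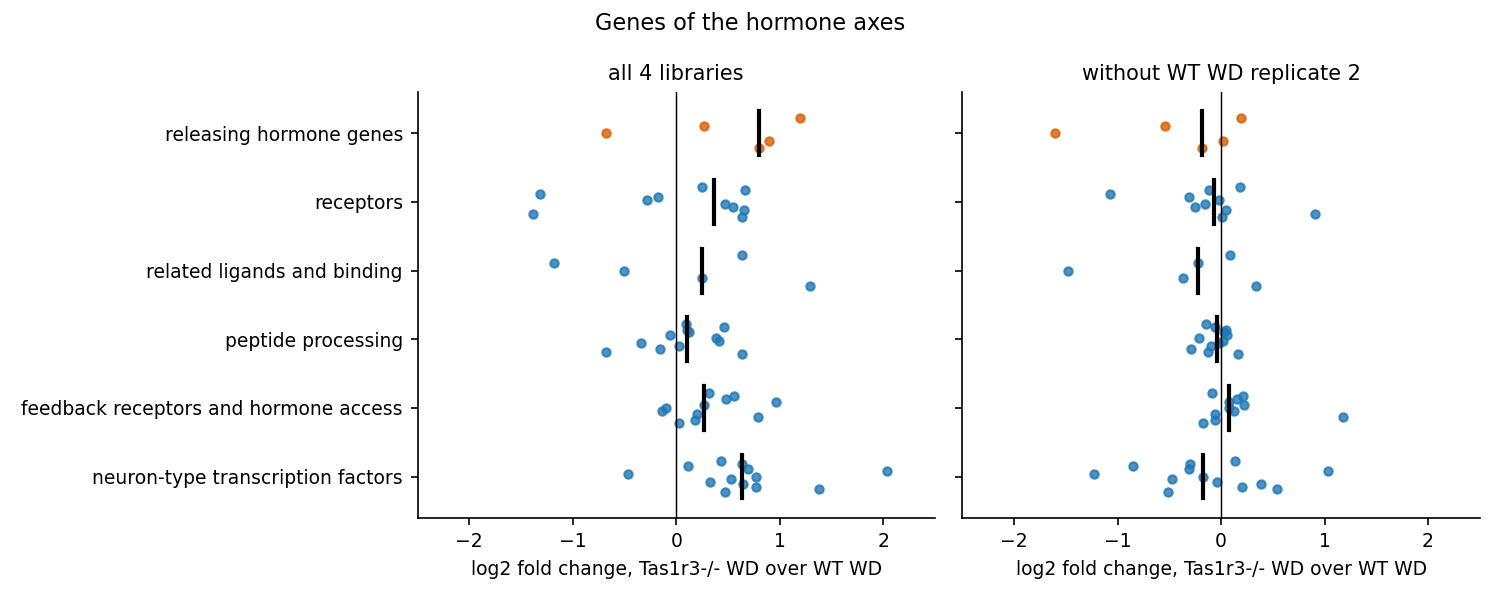
Log2 fold change, Tas1r3-/- WD over WT WD (x axis), of each tested gene (1 point each) in the releasing hormone genes and in 5 lists of their axes, with the median of each list as a bar, for all 4 libraries (left) and without WT WD replicate 2 (right). The median of the releasing hormone genes is 0.80 on the left and -0.18 on the right.

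The genes most like each hormone gene in their pattern over the 4 libraries were ranked among 14342 genes of at least 1 CPM, by the root mean square difference of log2 CPM after centring each gene. A set of 4 libraries allows many genes to look alike, and a single low library sets most of the pattern. Nearest to Trh were Otp (0.16), Irs4 (0.21) and Gpr50 (0.26). Nearest to Crh were Gm10710 (0.07), Gpr101 (0.11) and Brs3 (0.11). Nearest to Ghrh were Bsx (0.34), Btc (0.41) and Npy (0.43), and Bsx is a homeobox factor of arcuate neurons. Bsx was at 5.49 and 0.164 CPM in the WT libraries and at 2.25 and 3.86 CPM in the Tas1r3-/- libraries, again with both Tas1r3-/- libraries between the WT libraries. Nearest to Sst were Sec14l3 (0.07), Lbhd2 (0.08) and Pidd1 (0.09), and nearest to Gnrh1 were Ucn3 (0.14), 4933403O08Rik (0.20) and Foxb2 (0.22). Kiss1 was below 1 CPM on average and was not ranked.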

How the data were processed

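Ion Torrent reads were aligned by the authors with STAR (mm39, Partek Flow), and an estimated count per RefSeq transcript was deposited, not normalized. The study states 3 mice per group, and 2 libraries per group were analysed here. Of 30930 transcripts, 30891 were named by a RefSeq table (GRCm38.p6, names only) and summed to genes, and the other 39, with 0.347% to 2.49% of a library's counts, entered neither library sizes nor tests. Counts were rounded for edgeR 4.0.16 in R 4.3.3 (quasi-likelihood test, TMM, filterByExpr, Benjamini-Hochberg). Coordinates and lengths are from GENCODE M39 on GRCm39, matched by symbol for 5 of the 6 genes. The test was tested on simulated data. Nothing in the labels says whether a group's libraries came from separate mice, so p-values measure the spread between libraries, which may be technical. Intervals and floors (3 counts) cover counting error only. The genes and lists were chosen with earlier results of these data known. Named genes were the 6 members, Tas1r3, the 3 of highest mean CPM in each list and the 3 genes most alike in pattern, apart from markers given to describe the libraries and from Kiss1r, Sstr4 and Dio2, which fall outside this rule. Some genes that this rule names are not reported here. Alternatives were DESeq2 1.42.0, RLE size factors, total counts, 2 other filters, a replicate block, single transcripts and leaving out each library. Tables of single samples held the same values as the table of all samples.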

Additional observations from a re-analysis of the deposited data

How the results depend on the processing

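Other settings of normalization, filter and tool on all 4 libraries (DESeq2, RLE size factors, total counts, no filter, at least 10 counts in every library, single transcripts) turned no direction among the tested members and called none. DESeq2 called 9 genes in all, where edgeR called 0. Leaving out each library in turn gave 0 to 2090 called genes and 0 to 5 called members. The log2 fold change then ranged from -0.18 to 5.77 for Trh, 0.020 to 3.43 for Crh, -1.61 to 2.60 for Ghrh, -0.55 to 2.33 for Sst and 0.19 to 7.49 for Gnrh1. The top value for Gnrh1 rests on a WT library at 0 counts, depends on the prior count and is no bound. The extremes came from leaving out either WT library. Settings with 2 changes were chosen after the data were seen. Without a filter and without the library labelled WT WD replicate 2, 99 genes and 1 member, Ghrh (-1.61), were called, with Trh at -0.18 and Sst at -0.55. DESeq2 without that library called 11 genes and no member, with Trh at -0.18 and Sst at -0.55. The deviations of the replicates with the same number had a low correlation between the groups (0.0821 over 14344 genes). This cannot decide whether the libraries were paired, because WT WD replicate 2 and Tas1r3-/- WD replicate 1 held markers of other tissue. With the replicate block 0 genes were called, and the log2 fold changes were 2.06 for Trh, 1.29 for Crh, -0.013 for Ghrh, 0.85 for Sst and 1.48 for Gnrh1. The filter of at least 10 counts in every library left only Trh and Sst to test. By the highest count in a library, depth limits Crh, Gnrh1 and Kiss1 most, with at most 47, 30 and 6 counts. Ghrh had 108 counts in WT WD replicate 1, but 6 in WT WD replicate 2 and 27 and 45 in the Tas1r3-/- libraries.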
